A study of Mus musculus with 4 samples.

Results

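The 44 genes described here encode kinases, cyclins, motors and kinetochore proteins of G2 phase and mitosis, and they were taken by name from the 46095 gene symbols counted in mouse stomach. All 44 were present and all passed the filter on low counts, which 17643 genes passed in all. In MYC-KI stomachs 17 of the 44 mRNAs were higher than in WT (1.6-fold to 2.50-fold), against 5.65% of all tested genes, and none was called lower, against 5.08%. No gene of the table was called when either WT sample was left out. The largest differences were those of *Kif2c*, *Aurka* and *Hmmr*, which act on spindle microtubules. *Pttg1*, the gene of securin, was the only one of the 44 whose MYC-KI values lay below its WT values.

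RNA was taken from stomachs of C57BL/6 mice at 12 weeks of age, and there were 2 samples of each genotype. MYC-KI is the label of *Atp4b-cre; MycOE* mice, whose genotype the paper gives as *Atp4b-cre; Myc* fl/+. In them, Cre recombinase expressed from the *Atp4b* promoter switches on a human *c-Myc* transgene in the parietal cell lineage. The WT samples came from *Myc* fl/fl littermates, so the genotypes also differ in the number of floxed alleles. The RNA came from stomach tissue and not from sorted cells, so an mRNA that is higher because more cells make it and one that is higher because each cell holds more of it cannot be told apart.

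In G2 phase, CDK1 bound to cyclin A or cyclin B drives the cell into mitosis, and Aurora and Polo kinases build the spindle. Kinetochores then tie each chromosome to spindle microtubules, while the spindle checkpoint holds back the anaphase-promoting complex until all are attached. Once the complex is active, securin and cyclin B are destroyed, separase cleaves cohesin and the cell divides. In the stomach, dividing cells are normally found in the isthmus of the corpus glands and in the base of the antral glands, whereas parietal and chief cells seldom divide. Many genes of this programme share promoter elements and are transcribed together late in the cell cycle.

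The counts summed to 36152857 and 30260305 in WT and to 31350412 and 41463647 in MYC-KI, and 22200 to 23484 genes had at least 1 count. Counting noise alone would give a chi-square per degree of freedom near 1 between replicates, and it was 31.1 for WT and 106 for MYC-KI. The replicates were kept as separate samples. The labels do not state that they came from separate mice, so p-values measure only the spread between these samples. WT replicate 2 stood apart in the genes that mark sex. It had 17846 counts of *Xist* and 5 of the Y-linked *Ddx3y*, against 85 to 201 and 1861 to 2623 in the other samples. Counts of mouse *Myc* were 1062 and 759 in the WT samples, against 735 and 1091 in the MYC-KI samples (log2 fold change -0.35, adjusted p = 0.163). Whether reads of the human transgene were counted on the mouse row was not tested.

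The pairing of names and counts used here differs from that of the deposited table, and it is an inference that the table itself does not settle. The deposited names run in an order that ignores case. The counts of both MYC-KI columns were assigned, in row order, to these names after sorting them by character code, with WT left as deposited. This moved the MYC-KI counts of 42 of the 44 genes, 27 of them by at most 6 places and 12 by 396 or 397 places. *Ect2* and *Espl1* kept their place. Over the 60 rows around each gene, Pearson's r between the genotype means lay between 0.938 and 0.996 after this step (median 0.98), against a median of 0.113 as deposited in the 42 genes where it could be computed. These correlations are across neighbouring genes and are given as a description. In the deposited order 17 of the 44 genes were called higher and 21 lower, where 42.7% of 22083 tested genes were called higher and 41.5% lower, and mouse *Myc* had 4920 and 6600 counts in MYC-KI. All values that follow are from the re-sorted table and depend on this inference.

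Levels are CPM (counts scaled to a fixed library total) after TMM scaling, and a gene was called when edgeR's quasi-likelihood test gave an adjusted p under 0.05 and the fold exceeded 1.5 in either direction. Of the 44 genes, 17 (38.6%) were called higher, against 5.65% of all tested genes, and 0 were called lower, against 5.08%. DESeq2 also called 0 lower, where it called 1732 of 26731 genes lower in all. None was lower at an unadjusted p under 0.05. DESeq2 called 32 of the 44 higher, against 5.62% of all genes it tested, and edgeR without a filter on low counts called 30, against 4.96%. Another 2 genes, *Bub3* and *Top2a*, passed the p threshold with a smaller fold, 17 had an adjusted p between 0.05 and 0.1, and 8 lay above 0.1. At an unadjusted p under 0.05, 39 genes were higher, against 17.7% of all tested genes. The MYC-KI values of 43 genes lay entirely above the WT values, which was so for 33.3% of all tested genes. For *Pttg1* they lay entirely below, as for 31.5% of all tested genes. The median log2 fold change was 0.805 over the 44 genes and 0.01 over all tested genes.

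The size of the difference was steadier than the number of calls. Relative to the WT mean, the median log2 ratio over the 44 genes was 0.05 and -0.05 in the WT samples and 0.89 and 0.67 in the MYC-KI samples. MYC-KI replicate 1 had the higher value of its pair in 40 genes. Without WT replicate 2, the sample that stood apart, the median was 0.72, 24 genes were higher at an unadjusted p under 0.05 (9.97% of all tested genes), and 0 passed the call. Leaving out WT replicate 1 also gave 0 calls, with 31 genes higher at an unadjusted p under 0.05 (9.89% of all tested genes), and in both of these fits no gene of the whole table passed. Without MYC-KI replicate 1 the number of genes called higher was 3, against 4.2% of all tested genes, and without MYC-KI replicate 2 it was 25, against 5.82%. In each of these fits 43 of the 44 genes had a positive log2 fold change. Scaling by library size alone gave 38 genes called higher, against 12.9% of all tested genes, and a median of 1.03, while it moved the median of all tested genes to 0.23 and the calls over the whole table from 996 higher and 896 lower to 2272 higher and 739 lower.

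**Figure D1:**
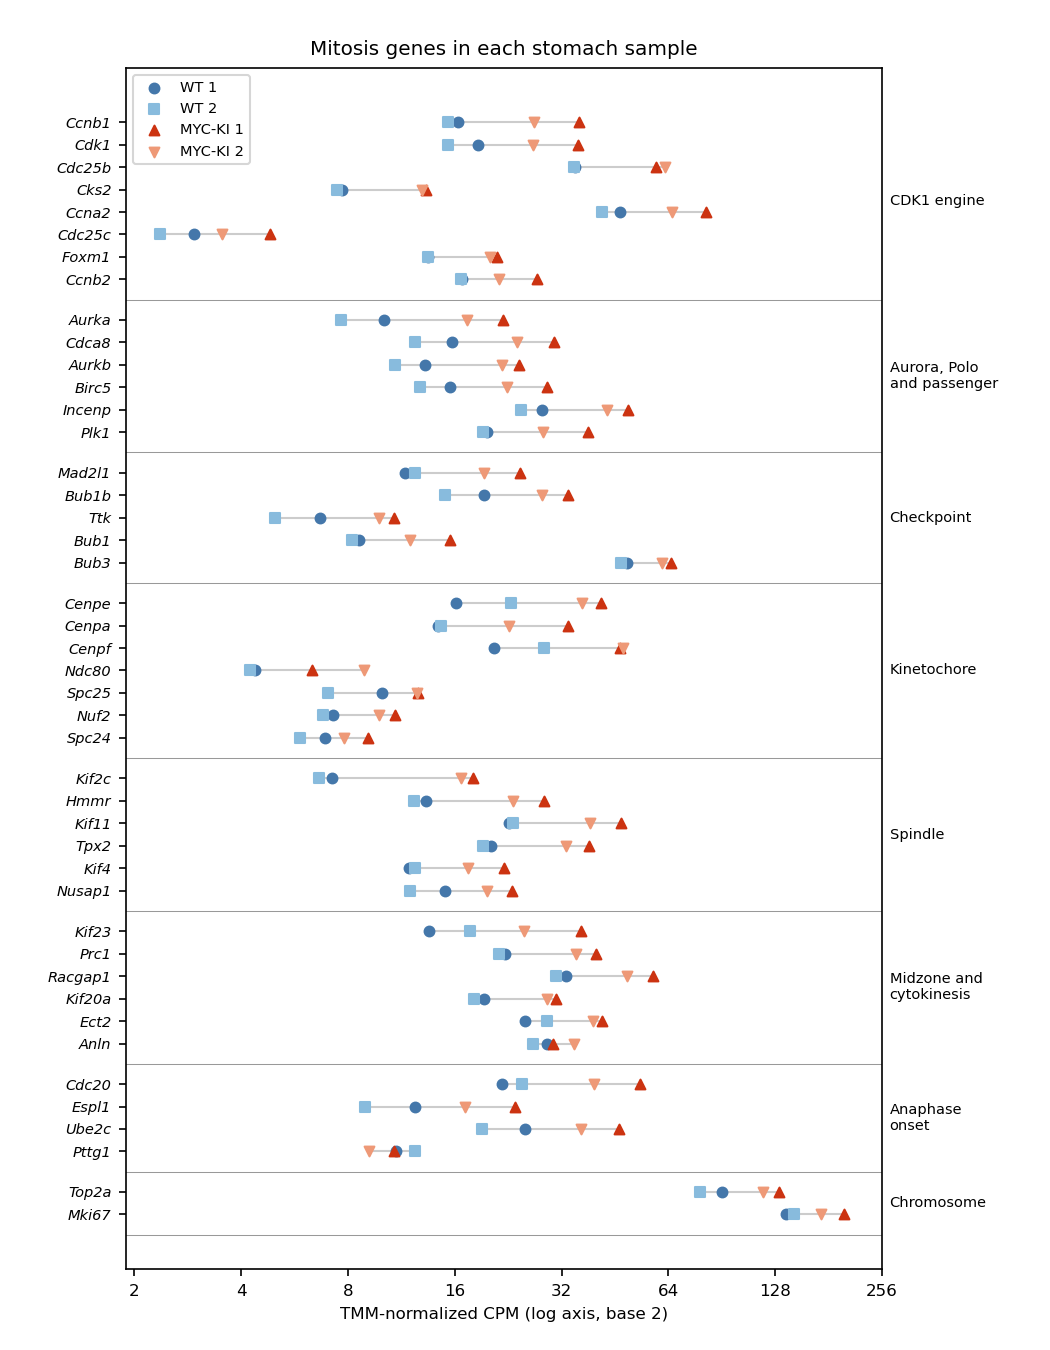
TMM-normalized CPM (log axis) of the 44 mitosis genes, grouped by role, with 1 symbol for each of the 4 stomach samples and a grey line over their range. The MYC-KI symbols lie to the right of both WT symbols for 43 genes, with the widest gap in *Kif2c*, where the lower MYC-KI value was 2.31 times the higher WT value, and a ratio of 1.04 in *Anln*.

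The promoters of the 44 genes, called or not, were read for the elements that G2 and mitosis genes are known to share. These are the cell cycle genes homology region (CHR), here TTTGAA, to which the MuvB complex binds, and the CCAAT box, to which NF-Y binds. The E-box CACGTG, a binding sequence of MYC with MAX, was searched beside them. Each was searched on both strands from 250 bases before to 50 after the RefSeq transcription start, and matches that share bases were all counted. A window was at hand for 36 of the 44 genes. Shown are 8 promoters in the build GRCm38.p6, each from 120 bases before to 30 after the start, 5′ to 3′ on the strand of the gene. The capitals mark CHR matches (TTTGAA, or TTCAAA on the other strand) and CCAAT boxes (CCAAT, or ATTGG on the other strand). The first 4 belong to genes called higher, the next 3 to genes that carry the same elements and were not called, and the last to *Pttg1*, which has neither in its window. In GENCODE, however, *Pttg1* begins further upstream, at chr11:43426251, which lies outside this window. The promoter at that end was not searched.
Cdc20 (chr4:118437314-118437463, minus strand): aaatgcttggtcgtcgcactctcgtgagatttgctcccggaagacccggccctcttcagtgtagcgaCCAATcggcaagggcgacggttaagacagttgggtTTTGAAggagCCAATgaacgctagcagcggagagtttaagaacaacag
Kif11 (chr19:37376262-37376411, plus strand): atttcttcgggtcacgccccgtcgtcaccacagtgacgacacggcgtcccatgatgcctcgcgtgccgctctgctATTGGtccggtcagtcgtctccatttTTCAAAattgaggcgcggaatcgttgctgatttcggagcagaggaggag
Hmmr (chr11:40733408-40733557, minus strand): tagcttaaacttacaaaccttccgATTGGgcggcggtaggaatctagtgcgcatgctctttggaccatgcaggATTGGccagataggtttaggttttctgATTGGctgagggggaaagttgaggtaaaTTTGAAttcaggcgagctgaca
Racgap1 (chr15:99651627-99651776, minus strand): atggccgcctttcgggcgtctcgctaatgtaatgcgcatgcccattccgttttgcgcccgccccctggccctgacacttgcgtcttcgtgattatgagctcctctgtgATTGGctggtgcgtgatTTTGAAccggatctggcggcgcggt
Ccnb2 (chr9:70421525-70421674, minus strand): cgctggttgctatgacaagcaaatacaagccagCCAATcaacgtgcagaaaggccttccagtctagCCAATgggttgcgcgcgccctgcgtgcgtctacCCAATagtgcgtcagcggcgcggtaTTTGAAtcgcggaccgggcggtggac
Top2a (chr11:99024160-99024309, minus strand): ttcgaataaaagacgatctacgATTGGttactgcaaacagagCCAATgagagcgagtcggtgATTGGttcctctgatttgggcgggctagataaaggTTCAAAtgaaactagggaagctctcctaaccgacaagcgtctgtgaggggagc
Espl1 (chr15:102296173-102296322, plus strand): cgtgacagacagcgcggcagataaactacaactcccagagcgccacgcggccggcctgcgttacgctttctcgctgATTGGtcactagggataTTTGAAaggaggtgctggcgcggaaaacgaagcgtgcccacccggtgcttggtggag
Pttg1 (chr11:43425952-43426101, minus strand): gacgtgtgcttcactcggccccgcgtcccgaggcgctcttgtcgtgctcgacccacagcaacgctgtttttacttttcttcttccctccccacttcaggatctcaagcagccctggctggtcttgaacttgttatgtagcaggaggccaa

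In *Cdc20* the CHR began 18 bases before the start, between CCAAT boxes at -53 and -8. *Kif11* has its CHR on the other strand at -19, downstream of a reversed CCAAT box at -45. In *Hmmr* and *Racgap1* the CHR lies just after the start, at 9 and 6, and *Ccnb2*, with its CHR at 5, has the same arrangement behind 3 CCAAT boxes. A CHR was present in 26 of the 36 windows (72.2%), against 20.2% of the 27025 genes with a window. A CCAAT box was found in 28 (77.8%), against 41.1%, and both elements were in 23 (63.9%), against 8.97%. The CCAAT box was also frequent in the windows of the S phase genes (76.9%) and of the further mitosis genes (60.7%). The E-box was found in 3 windows (8.33%), those of *Anln*, *Espl1* and *Ttk*, and in 8.09% of all genes with a window.

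The position of the CHR was narrow. Of 32 matches, 25 began within 50 bases of the start and none lay more than 200 bases upstream, and 24 of the 36 genes (66.7%) had a match within those 50 bases, against 4.92% of all genes. CCAAT boxes were spread more widely, with 45 of 66 matches in the 100 bases before the start. The elements did not separate the called genes from the others. A CHR was present in 8 of the 12 called genes with a window (66.7%) and in 18 of the 24 that were not called (75%), and a CCAAT box in 10 (83.3%) and 18 (75%). *Birc5*, *Mad2l1*, *Nuf2*, *Nusap1* and *Pttg1* had no match of either, and of these *Mad2l1* was called higher.

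**Figure D2:**
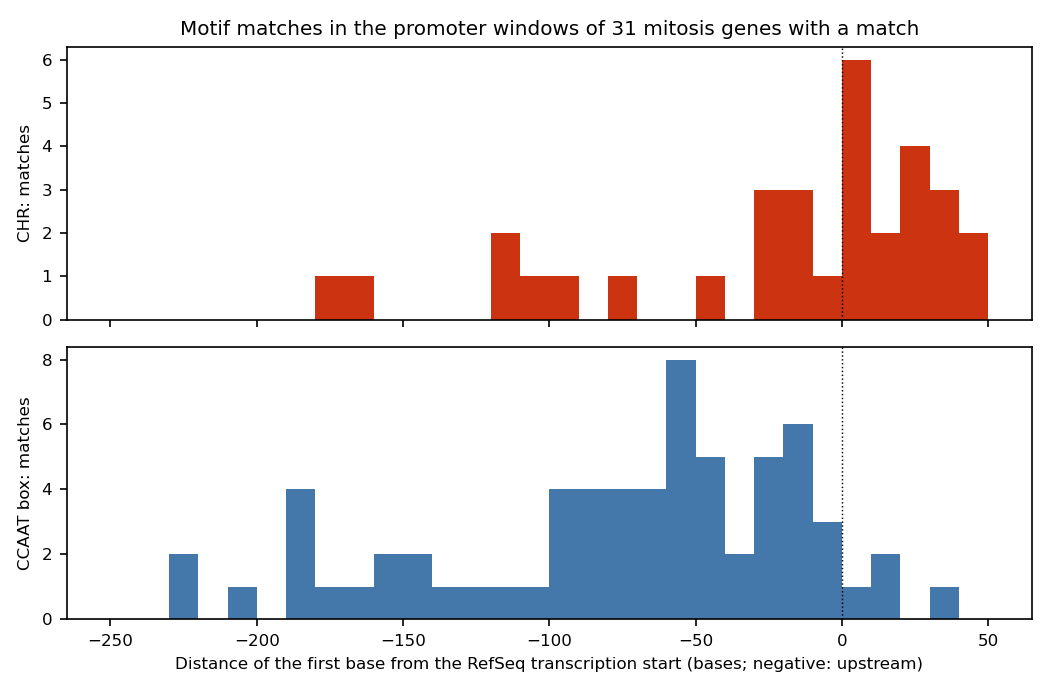
Number of CHR matches (upper panel) and CCAAT matches (lower panel) in bins of 10 bases, by the distance of the first base from the RefSeq start (negative: upstream), in the 31 genes with a match. CHR matches crowd around the start, 25 of 32 within 50 bases, whereas 45 of 66 CCAAT matches lie in the 100 bases upstream of it.

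Of the 8 genes of the CDK1 engine, edgeR called *Ccna2*, *Ccnb1*, *Cks2* and *Cdc25b* higher, and DESeq2 called 6. *Cdc25b*, the phosphatase that starts CDK1 activation, had 34.9 and 34.7 CPM in WT and 59.2 and 62.8 in MYC-KI. Its fold of 1.75 had the smallest adjusted p of the 44 genes (0.02; log2 fold change 0.81, SE 0.08), and its replicates were among the closest. *Ccnb1*, cyclin B1, had 16.4 and 15.3 CPM in WT and 35.8 and 26.8 in MYC-KI (1.98-fold, adjusted p = 0.0431). For *Ccna2*, cyclin A2, the values were 46.7 and 41.7 against 82 and 65.5 (1.67-fold, adjusted p = 0.046). *Cks2*, a small subunit that binds CDK1, had 7.69 and 7.46 CPM against 13.3 and 12.9 (1.73-fold, adjusted p = 0.0476). The genotypes did not overlap in any of the 4, and the MYC-KI replicates lay further apart for the cyclins than for *Cks2*.

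The kinase itself did not pass in edgeR, while DESeq2 called *Cdk1* and *Foxm1* higher. *Cdk1* had 18.6 and 15.3 CPM in WT and 35.6 and 26.5 in MYC-KI, a fold of 1.83 with an adjusted p of 0.0642. *Foxm1*, a transcription factor of late cell cycle genes, had 13.4 and 13.5 against 21.1 and 20.1 (1.53-fold, adjusted p = 0.0505). *Ccnb2*, cyclin B2, showed 1.46-fold (adjusted p = 0.103). *Cdc25c*, the other CDC25 phosphatase, had the fewest reads of the 44 genes, 2.66 CPM on average in WT, and a fold of 1.57 (adjusted p = 0.227). In all 4 the MYC-KI values lay above the WT values.

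Aurora and Polo kinases and the chromosomal passenger complex gave 3 calls of 6 in edgeR and 6 in DESeq2, with a median log2 fold change of 0.90. *Aurka*, the kinase of spindle poles (chr2:172356190-172370535), had 10.1 and 7.63 CPM in WT and 21.9 and 17.3 in MYC-KI. Its fold of 2.2 was the second largest of the 44 genes (log2 fold change 1.14, SE 0.23, adjusted p = 0.0476). *Aurkb*, the kinase of the passenger complex, had 13.2 and 10.9 CPM against 24.4 and 21.7 (1.91-fold, adjusted p = 0.0395), and *Incenp*, the scaffold to which it binds, had 28.1 and 24.7 against 49.2 and 42.9 (1.74-fold, adjusted p = 0.0342). The remaining passenger subunits had folds of the same size and wider spreads. Borealin (*Cdca8*) differed by 1.94-fold (adjusted p = 0.053) and survivin (*Birc5*) by 1.82-fold (adjusted p = 0.0605). *Plk1*, the Polo kinase, had 19.7 and 19.3 CPM in WT and 38.1 and 28.3 in MYC-KI, so that its WT samples were close and its MYC-KI samples were not (1.70-fold, adjusted p = 0.0627).

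Among the 5 spindle checkpoint genes edgeR called *Mad2l1*, and DESeq2 called 4. MAD2 is the inhibitor that unattached kinetochores produce to hold CDC20, and its mRNA had 11.6 and 12.3 CPM in WT and 24.4 and 19.4 in MYC-KI (1.83-fold, adjusted p = 0.0471). *Bub1b* and *Bub3* encode further subunits of the inhibitor, and neither was called by edgeR. *Bub1b* had 19.4 and 15 CPM against 33.4 and 28.2 (1.79-fold, adjusted p = 0.0562). *Bub3*, whose protein also works outside the checkpoint, had 48.9 and 47 against 65.1 and 61.4, a fold of 1.32 with an adjusted p of 0.0497, which fell short of the fold threshold. The checkpoint kinases *Ttk* (1.77-fold, adjusted p = 0.0879) and *Bub1* (1.63-fold, adjusted p = 0.0871) did not pass in edgeR.

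Kinetochore genes gave 1 call of 7 in edgeR, *Cenpf*, and 3 in DESeq2, although their median log2 fold change of 0.82 was close to that of all 44 genes. *Cenpf*, a large protein of the outer kinetochore, had 20.6 and 28.5 CPM in WT and 46.7 and 47.5 in MYC-KI (1.92-fold, adjusted p = 0.0461). *Cenpe*, the kinesin of the kinetochore, had 16.1 and 23.1 against 41.5 and 36.6 (1.99-fold, adjusted p = 0.0528). Both were lower in WT replicate 1 than in WT replicate 2, against the usual order of that pair, since 32 of the 44 genes were higher in replicate 1. *Cenpa*, the histone that marks centromeres, differed by 1.93-fold (adjusted p = 0.0629). The 4 subunits of the NDC80 complex, which binds microtubules, had smaller or less certain differences. *Ndc80* showed 1.77-fold (adjusted p = 0.11), *Spc25* 1.48-fold (adjusted p = 0.174), *Nuf2* 1.47-fold (adjusted p = 0.113) and *Spc24* 1.33-fold (adjusted p = 0.257). With mean levels of 4.3 to 8.52 CPM in WT, fewer reads stood behind these values than behind those of most of the 44 genes.

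Of the 6 genes of the spindle, which had a median log2 fold change of 0.87, edgeR called 4 and DESeq2 all 6, and *Kif2c*, *Hmmr*, *Kif11* and *Tpx2* rose. *Kif2c* (chr4:117159639-117182639), the kinesin that takes microtubules apart at the centromere, had 7.21 and 6.63 CPM in WT and 18 and 16.7 in MYC-KI. This was the largest fold of the 44 genes, 2.5 (log2 fold change 1.32, SE 0.16, adjusted p = 0.0232). *Hmmr*, which binds microtubules near the spindle poles, had 13.3 and 12.3 CPM against 28.6 and 23.3 (2.03-fold, adjusted p = 0.0337). *Kif11*, the motor that pushes the poles apart, had 22.7 and 23.3 against 47.2 and 38.5 (1.86-fold, adjusted p = 0.0328). *Tpx2*, the activator that brings Aurora A to the spindle, had 20.3 and 19.2 against 38.2 and 33 (1.81-fold, adjusted p = 0.0316). In these 4 genes the WT replicates differed by little and each MYC-KI value was at least 1.5 times the higher WT value, which held for 18 of the 44 genes and for 8.67% of all tested genes. The chromosome motor *Kif4* (1.63-fold, adjusted p = 0.0689) and the microtubule bundler *Nusap1* (1.59-fold, adjusted p = 0.0859) did not pass in edgeR.

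At the midzone, where the spindle is rebuilt for cytokinesis, edgeR called *Prc1*, *Racgap1* and *Kif20a* higher, and DESeq2 called 4 genes. *Prc1*, which crosslinks the midzone microtubules, had 22.2 and 21.3 CPM in WT and 40 and 35.1 in MYC-KI (1.73-fold, adjusted p = 0.0319). *Racgap1* had 33 and 30.9 against 57.8 and 48.8 (1.67-fold, adjusted p = 0.035). Its partner in the centralspindlin complex, *Kif23*, had a larger fold with a wider spread, 13.5 and 17.7 against 36.3 and 25 (1.97-fold, adjusted p = 0.0755). The kinesin gene *Kif20a* had 19.4 and 18.1 CPM against 30.9 and 29.2 (1.6-fold, adjusted p = 0.0373), and 29.3% of its exon bases are also exon bases of *Cdc23* on the opposite strand. *Ect2*, the exchange factor that turns on RhoA for the contractile ring, showed 1.49-fold (adjusted p = 0.0509) and is 1 of the 2 genes whose counts the re-sorting did not move. *Anln*, an anchor of the contractile ring, had 29.1 and 26.6 CPM against 30.2 and 34.8, the smallest positive difference of the 44 genes (log2 fold change 0.22, SE 0.13, adjusted p = 0.289).

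Of the 4 genes of anaphase onset, edgeR called *Cdc20* higher, and DESeq2 called 3. *Cdc20*, the activator of the anaphase-promoting complex, had 21.8 and 24.8 CPM in WT and 53.4 and 39.6 in MYC-KI (2-fold, log2 fold change 0.997, SE 0.19, adjusted p = 0.0425). *Ube2c*, the ubiquitin-conjugating enzyme of that complex, had 25.2 and 19.1 against 46.3 and 36.4 (1.87-fold, adjusted p = 0.0601), and 22.8% of its exon bases are also exon bases of *Tnnc2*. *Espl1*, the gene of separase, had 12.4 and 8.96 against 23.7 and 17.1 (1.91-fold, adjusted p = 0.0874) and its counts were not moved by the re-sorting. *Pttg1*, the gene of securin, from which separase is freed, had 10.9 and 12.4 CPM in WT and 10.8 and 9.16 in MYC-KI (log2 fold change -0.23, SE 0.18, adjusted p = 0.437), so the nearest values of the genotypes lay closer together than its replicates did. Its log2 fold change stayed below 0 in each of the alternative fits of the re-sorted table, from -0.35 to -0.003.

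*Mki67* and *Top2a*, which act on the mitotic chromosome, drew the most reads of the 44 genes and had modest differences. *Mki67*, the gene of the Ki-67 protein that coats mitotic chromosomes, had 138 and 145 CPM in WT and 200.1 and 172 in MYC-KI (1.32-fold, log2 fold change 0.40, SE 0.11, adjusted p = 0.0821). *Top2a*, which untangles sister chromatids, had 90.9 and 78.5 CPM against 131 and 118 (1.47-fold, log2 fold change 0.56, SE 0.11, adjusted p = 0.0496), under the fold threshold. Neither was called, and for both the MYC-KI values lay above the WT values. Per kilobase of annotated exon, the highest level in WT was that of *Mki67*, at 14 CPM per kb, and the lowest that of *Cdc25c*, at 0.54. In MYC-KI the highest was that of *Cdc20*, at 24.9 CPM per kb, followed by *Cks2* at 18.9 and *Mki67* at 18.5. These levels rest on the summed length of all annotated exons.

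**Figure D3:**
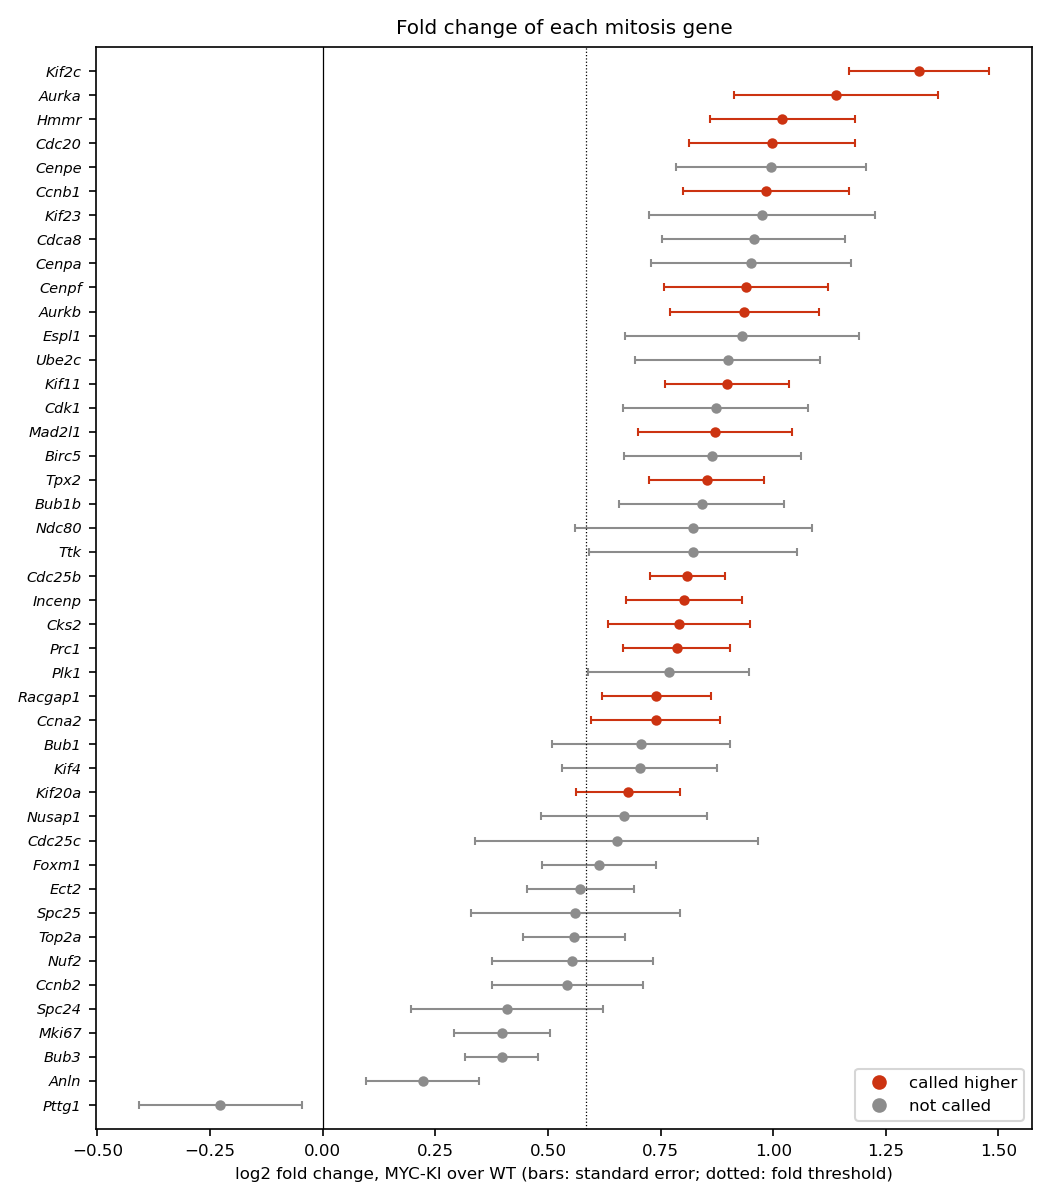
Log2 fold change of each of the 44 genes, MYC-KI over WT, sorted by size, with bars of 1 standard error and a dotted line at the fold threshold of 0.585. Red points mark the 17 called genes, which begin at a log2 fold change of 0.68, and 34 genes lie to the right of the dotted line.

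Reads of overlapping genes can be shared, and the setting for strand is not given in the sources used here. In the GENCODE annotation, 31 of the 44 genes share no exon bases with another gene, and 12 of these were called higher, with a median log2 fold change of 0.84. Over 10% of the exon bases were shared in 6 genes, of which *Ccna2*, *Kif20a* and *Prc1* were called. *Ccnb1*, *Ccnb2* and *Kif4* have named pseudogenes, to which some of their reads could have been counted.

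Beyond the 44, 99 further genes of mitosis were counted, and 98 were tested. Of these, 15 (15.3%) were called higher, against 5.65% of all tested genes, and *Wee1* was called lower, against 5.08%. At an unadjusted p under 0.05, 55 were higher, against 17.7% of all tested genes, and the median log2 fold change was 0.62. Condensin, which compacts mitotic chromosomes, gave 4 calls of 8, in *Smc4* (1.53-fold, adjusted p = 0.0234), *Ncapd2* (1.63-fold, adjusted p = 0.0335), *Ncapg* (1.82-fold, adjusted p = 0.0362) and *Smc2*. Of 11 cohesin genes, *Esco2* (2.02-fold, adjusted p = 0.0318) and *Cdca5* (2.2-fold, adjusted p = 0.034) rose, and the list's median of 0.12 was near that of all genes. *Esco2* and *Cdca5*, the gene of sororin, encode factors that establish or protect cohesion rather than the ring itself.

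No gene of 17 in the inner kinetochore or of 13 in the outer kinetochore was called by edgeR, with medians of 0.64 and 0.71. At an unadjusted p under 0.05, 8 and 7 of them were higher, against 17.7% of all tested genes. DESeq2 called 6 and 5 higher, against 5.62% of the genes it tested. *Hjurp*, the chaperone of CENP-A, had 58.2 and 50 CPM in WT and 92.1 and 76.9 in MYC-KI (adjusted p = 0.0527), and *Zwilch*, a subunit that recruits dynein, had 6.38 and 5.66 against 13.2 and 10.7 (adjusted p = 0.0517). *Cenpt* (adjusted p = 0.0535) and *Knl1* (adjusted p = 0.0569) came next in these lists. Subunits and regulators of the anaphase-promoting complex gave 0 calls of 17 in edgeR, 1 in DESeq2 and a median of 0.17. In edgeR 6 were higher at an unadjusted p under 0.05, against the same 17.7%. The smallest adjusted p was that of *Ube2s* (1.65-fold, adjusted p = 0.051). For *Cdc23*, a subunit of the complex, it was 0.0806.

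Of 32 tested further regulators of the spindle and of mitosis, 9 were called higher and the list's median was 0.90. *Psrc1*, a microtubule-binding protein, had 1.67 and 1.72 CPM in WT and 6.13 and 5.57 in MYC-KI (3.45-fold, adjusted p = 0.0298). *Cep55*, which acts at the last step of cytokinesis, had 9.45 and 9.75 against 17.2 and 17.7 (1.82-fold, adjusted p = 0.0344). *Sgo2a*, a protector of centromeric cohesion, rose as well (adjusted p = 0.0348). *Wee1*, the kinase that holds CDK1 inactive, had 49 and 47.4 CPM against 29.9 and 30.4 (log2 fold change -0.68, SE 0.09, adjusted p = 0.0255), the opposite direction to *Cdc25b*. *Kifc1* did not pass the filter on low counts.

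Subunits of MuvB, B-MYB and the E2F repressors gave 3 calls of 10 and a median log2 fold change of 0.16. *Mybl2*, the B-MYB that joins MuvB to activate mitotic genes, had 12 and 7.92 CPM in WT and 33.4 and 26.8 in MYC-KI (3.01-fold, adjusted p = 0.0356). *Tfdp1*, the partner of E2F proteins, had 71 and 67.9 against 152 and 135 (2.07-fold, adjusted p = 0.0188), and *E2f4* differed by 1.54-fold (adjusted p = 0.0401). Of 16 tested S phase genes, 8 were called higher with a median of 0.66, among them the replication licensing genes *Cdt1* (2.48-fold, adjusted p = 0.0228), *Mcm5* (1.72-fold, adjusted p = 0.0279) and *Mcm4* (1.56-fold, adjusted p = 0.0302). Of the 3 CDK inhibitors of the p21 family none was called by edgeR, while 1 was lower at an unadjusted p under 0.05 and 1 was called lower by DESeq2. *Cdkn1c* had the lowest p, at 23.7 and 29.9 CPM against 15.5 and 16.1 (adjusted p = 0.0539), and *Cdkn1b* had a log2 fold change of -0.05 (adjusted p = 0.689). The CHR was present in 40.5% of the windows of the further mitosis genes and in 23.1% of those of the S phase genes.

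**Figure D4:**
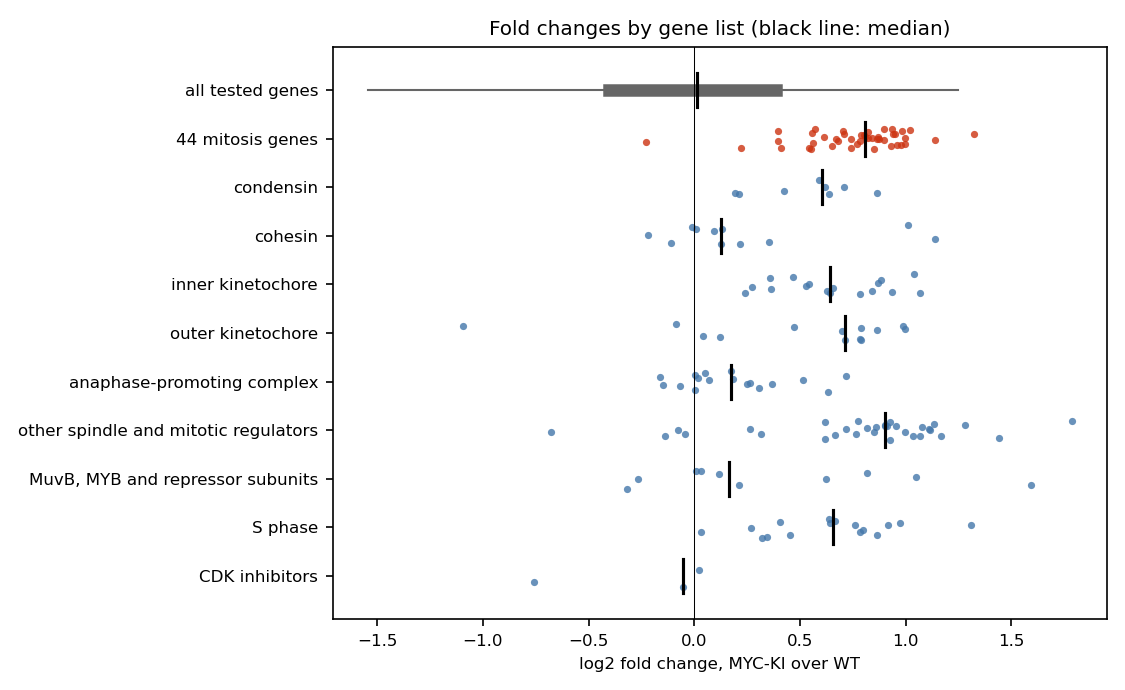
Log2 fold change, MYC-KI over WT, of each tested gene in 10 lists, with the median of each as a black line, and for all tested genes the middle 50% (thick bar) and the range from the 5th to the 95th percentile (thin line). The 44 mitosis genes have a median of 0.805, condensin 0.61, cohesin 0.12 and the anaphase-promoting complex 0.17, against 0.01 over all tested genes.

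The samples also differed in cell type markers, and the part of these differences in the values of the mitosis genes was not tested. The summed CPM of the 44 mitosis genes was 966 and 931 in WT and 1661 and 1426 in MYC-KI. All 7 genes listed as parietal cell markers were called lower, and their sum went from 12430 to 12470 CPM in WT to 359 and 367 in MYC-KI. The list includes *Gif*, which in mice is made by chief cells, at 1776 and 1678 CPM in WT and 100.6 and 58.45 in MYC-KI. Of 4 chief cell markers 3 were called lower (78830 to 83080 CPM in WT, 1098 and 1460 in MYC-KI), and of 6 surface and neck mucous cell markers 4 (54750 to 65750 CPM, against 30670 and 25860). The 4 mucous markers called lower were those of surface cells, while the neck cell markers *Muc6* and *Tff2* overlapped between the genotypes. None of the markers of these 3 lists was at 0 in any sample, and *Atp4a*, the proton pump of parietal cells, kept 138 and 187 CPM.

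The 5 general epithelial markers summed to 7920 to 8657 CPM in WT and to 8904 and 9483 in MYC-KI, and none was called by edgeR, while DESeq2 called 1 higher. Leukocytes can also hold dividing cells, and their 13 markers summed to 115 to 133 CPM in WT and to 63.2 and 45.6 in MYC-KI, with 3 of 12 tested (*Itgam*, *Csf1r* and *Adgre1*) called lower. These 3 are markers of macrophages and other myeloid cells. The 10 that were not called summed to 24.9 and 33.6 CPM in WT and to 32.4 and 18.7 in MYC-KI, so that their sums overlapped. *Ptprc*, which all leukocytes express, made up most of these sums, at 15 and 21.2 CPM against 21.9 and 13.3. Among the 10, the MYC-KI values of *Ms4a1*, *Cd79b* and *Cd4* lay entirely below the WT values. In the whole list this was so for 6 of 13 markers, against 31.5% of all tested genes, and 7 overlapped. At an unadjusted p under 0.05 in edgeR, 5 markers were lower and 0 higher, against 2894 lower of 17643 tested genes. Markers of forestomach, muscle and intestine varied between replicates. Squamous epithelial markers summed to 1414 to 2483 CPM in WT and to 827 and 4221 in MYC-KI, smooth muscle markers to 4116 to 6514 and to 2095 and 4476, and intestinal markers to 350.1 to 523 and to 533 and 229, with no call by either tool and 0 genes at an unadjusted p under 0.05 in these 3 lists of 8, 5 and 6 genes. The 7 pancreatic acinar markers summed to 2.04 to 2.17 CPM in WT and to 1.03 and 0.58 in MYC-KI, and 3 of them were at 0 in every sample. Of the 2 that were tested, edgeR called 1 lower and DESeq2 called both lower.

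**Figure D5:**
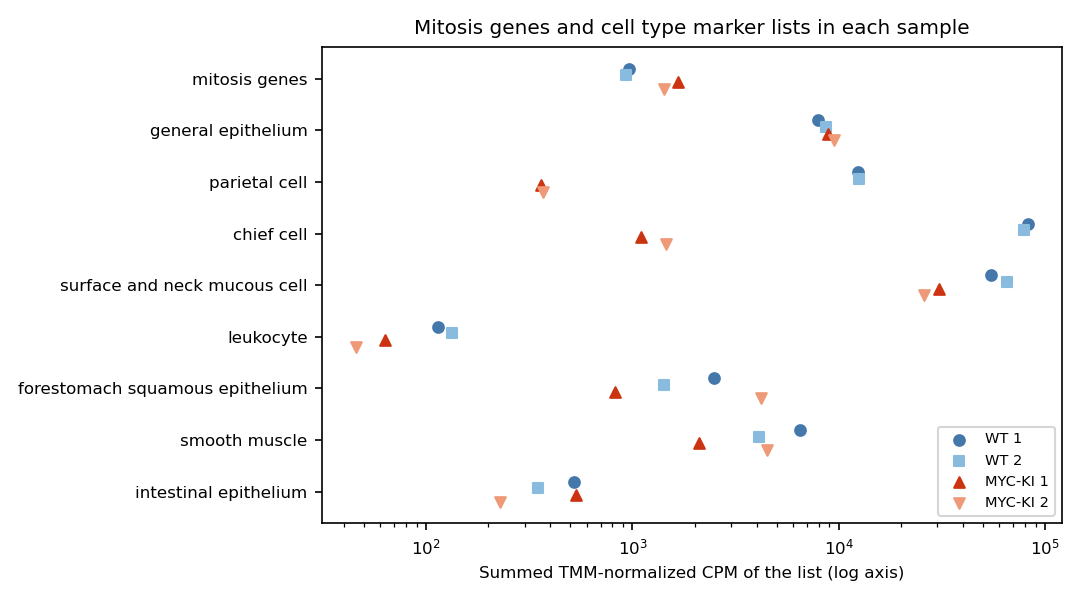
Summed TMM-normalized CPM (log axis) of the 44 mitosis genes and of 8 lists of cell type markers, with 1 symbol for each of the 4 samples. The mitosis sum is higher in both MYC-KI samples (1661 and 1426 against 966 and 931), while the parietal, chief, mucous and leukocyte sums are lower in both. Most of the leukocyte difference comes from 3 of its 13 markers. In MYC-KI 6 of the 13 lie entirely below WT, and 7 overlap.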

How the data were processed

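Gene counts were analysed for 2 WT and 2 MYC-KI samples of mouse stomach RNA. The authors deposited raw counts per gene symbol without normalization in 1 table. The submitters' processing notes name HISAT2 and the mouse build mm10. The counter, annotation and strand setting are not given in the sources used here. All 4 count columns were mapped by name, and the MYC-KI columns were re-sorted as described, an order inferred from the names and the correlations between genotypes. The study's text names DESeq2 with the same thresholds.

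The main test was the quasi-likelihood F test of edgeR 4.0.16 (R 4.3.3). Counts were filtered by filterByExpr and scaled by TMM, genotype was the only term, and p-values were adjusted over 17643 genes by Benjamini-Hochberg. The common biological coefficient of variation was 0.295. Calls needed an adjusted p under 0.05 with a log2 fold change beyond 0.585 in either direction. At 30260305 to 41463647 counts per sample the 44 genes had 66 to 7689 counts each. The replicate numbers are not stated to mark anything shared, and the correlation of the replicate differences across genes was 0.0674. Alternatives were DESeq2 1.42.0, its size factors, library size, other count filters, other fold thresholds, the replicate number as a block, the deposited order, names whose place does not depend on the order, and leaving out each sample, where a lone sample was assumed to vary like the other genotype.

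Members and lists were chosen with earlier results of these data known. All 44 genes are named, and from each other list at most 3 called genes with the smallest adjusted p, or at most 2 where none was called. *Wee1*, *Smc2*, *Kifc1* and the marker genes called lower among leukocytes were named after their values were seen. So were *Ptprc*, *Ms4a1*, *Cd79b*, *Cd4*, *Gif*, *Muc6* and *Tff2*. *Knl1* was listed as *Casc5* and *Sgo2a* as *Sgol2a*. Promoter windows and gene models came from RefSeq and GENCODE M21, both on GRCm38. Protein motifs were not analysed here.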

Additional observations from a re-analysis of the deposited data

How the results depend on the processing

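The 44 genes gave 17 calls higher and 0 lower, and the 99 further mitosis genes 15 and 1, with a median log2 fold change of 0.805 over the 44. In the deposited order the 44 gave 17 higher and 21 lower, the further genes 39 and 42, and the median was -0.101. The log2 fold changes of 21 genes then turned negative: *Ccna2* -5.92, *Ccnb1* -4.65, *Foxm1* -2.96, *Plk1* -12.38, *Incenp* -0.27, *Bub3* -1.85, *Mad2l1* -1.23, *Cenpa* -11.95, *Cenpe* -9.32, *Cenpf* -1.47, *Nuf2* -10.91, *Spc24* -1.08, *Kif11* -2.50, *Kif4* -11.69, *Nusap1* -11.85, *Kif23* -1.63, *Anln* -8.64, *Racgap1* -10.88, *Ube2c* -12.56, *Mki67* -1.55 and *Top2a* -2.89. If the inferred order holds, these compare different genes, and the table alone does not settle this. Fitted values against a genotype at 0 depend on the prior count. With only the genes at the same place in both orders, which left 2 of the 44, 0 of them and 1 and 0 of the further genes were called.

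DESeq2 called 32 and 39 higher, against 5.62% of all genes tested, and a fit with no filter on low counts 30 and 29, against 4.96%. Library size without scaling factors gave 38 and 44 higher, against 12.9%, and 0 of the further genes lower, with a median of 1.028. The cause of these shifts was not tested. An absolute log2 fold change above 1 left 3 and 7 higher and 0 lower. With the replicate block, 0 of the 44 and 0 and 0 of the further genes were called, and 27 of 17643 genes were called higher in all. In that fit 37 and 50 were higher at an unadjusted p under 0.05, against 14.7% of all tested genes. The smallest adjusted p over the 44 was 0.0582. With 1 sample left out at a time, calls higher ranged from 0 to 25 over the 44 and from 0 to 16 over the further genes, calls lower from 0 to 1 over the further genes, and the median from 0.672 to 0.891. None of these genes was called without WT replicate 1 or without WT replicate 2, and few were called without MYC-KI replicate 1. DESeq2's size factors, a minimum of 10 counts and no fold threshold gave counts within 1.5 times the reported ones, with 20 higher among the further genes at 10 counts. The lowest count behind a value of the 44 genes was 66.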
